A study of Mus musculus with 2 samples.

Results

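Cells that carried transcripts of blood vessel endothelium were examined among the cells that had entered a scaffold in a mouse skull defect. A cell was a member if it had at least 500 unique molecular identifiers (UMIs, counted transcript molecules) and under 20% of them from mitochondrial genes, and if its UMIs of the 5 markers Cdh5, Egfl7, Emcn, Kdr and Plvap summed to at least 4. Members were thus chosen by their measured UMIs of the markers, which are no finding below. A member could hold at most 1 UMI of Csf1r and none of Cd3e or Siglech, and S100a8 with S100a9, and Col1a2, each had to stay under 0.5% of its UMIs. Of 15184 cells within the UMI and mitochondrial limits, 274 were members, 168 of 7782 in Gel100 and 106 of 7402 in Gel50_CS50. Both groups were female Balb/c mice of 6 weeks with a 3.5 mm cranial defect that held an acellular scaffold, Gel100 in one group and Gel50_CS50 in the other. The sources used here do not say what the scaffold names mean. The scaffolds of 5 mice per group were pooled at week 1 (7 days), digested with Liberase, chondroitinase and hyaluronidase, cleared of red cells and sorted for viable cells, so each group is 1 library. No test between the scaffolds was possible with 1 library each. The 95% intervals below cover counting error, of UMIs for a ratio and of cells for a share. Spread between the cells of a library lies outside the ratio intervals, and differences between mice or pools lie outside both.

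Endothelial cells line blood and lymphatic vessels. They join through VE-cadherin (Cdh5), respond to vascular endothelial growth factor through VEGFR2 (Kdr), secrete Egfl7 into the matrix around the vessel, and carry the sialomucin endomucin (Emcn) and the diaphragm protein Plvap of fenestrae and caveolae. In healing bone, sprouting vessels bring oxygen and cells into the defect, and postcapillary venules are the vessels through which leukocytes leave the blood, with P-selectin (Selp) and E-selectin (Sele) catching rolling cells. Kdr is not exclusive to endothelium, and Cdh5 is also found in some leukocytes.

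The label was checked against the markers, and most members went against it. A UMI of Kdr and of no other marker was all that 127 Gel100 members and 53 Gel50_CS50 members showed, 180 of the 274, and 2 further members held 1 marker other than Kdr. A pair of markers was found in 13 and 4 members. At least 3 of the 5 markers were found in 27 Gel100 and 48 Gel50_CS50 members, and all 5 in 15 and 33 of them. Below, the 180 cells are called Kdr-alone cells, with no cell type name, and the 75 cells with at least 3 markers are called endothelial-like. This division was made after the values had been seen. Egfl7, Emcn, Plvap and Cdh5 were at 0 in the Kdr-alone cells because the division requires it, so the genes that were not used are given next to them below.

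**Figure D1:**
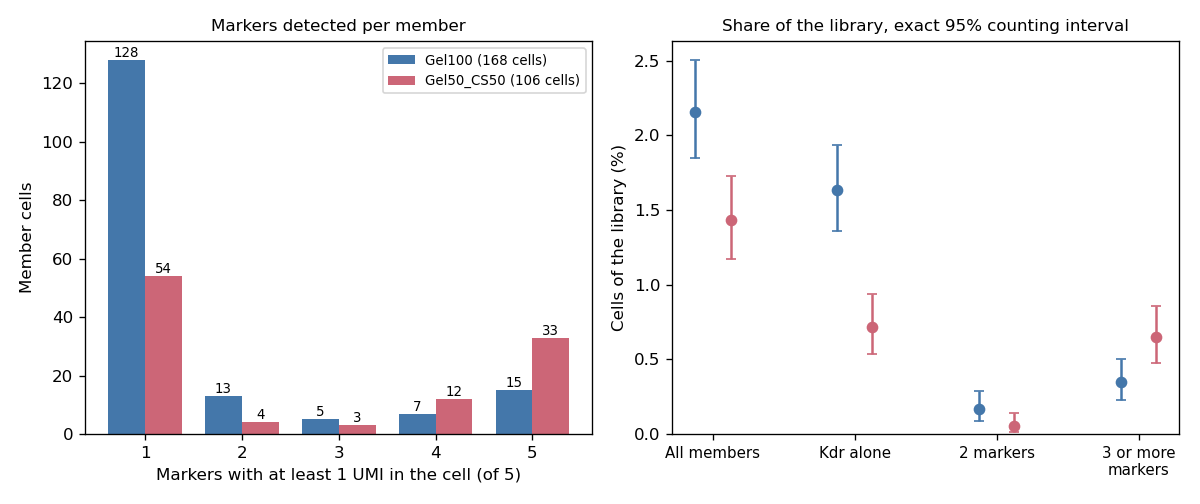
Left, bars count the member cells of each library (y axis) by how many of the 5 markers had a UMI (x axis); right, points give each kind of member as a percentage of the library's cells, with exact 95% counting intervals. Members with 1 marker number 128 in Gel100 and 54 in Gel50_CS50, and those with all 5 markers number 15 and 33.

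The limit on the marker sum divided a continuous range. Just outside it, at a sum of 3, lay 44 Gel100 and 19 Gel50_CS50 cells, of which 37 and 15 held Kdr alone. Just inside, at a sum of 4, lay 28 and 11 members, of which 22 and 9 held Kdr alone. The median marker sum was 6.00 and 7.00 UMIs in Kdr-alone cells, against 43.0 and 79.0 UMIs in endothelial-like cells, so the limit passed through the former and far below most of the latter. The other limits took away more cells than they left. A marker sum of at least 4 was reached by 735 and 444 cells, and 567 and 338 of these failed another limit, most often that on Csf1r (417 and 211 cells), the receptor of macrophages and monocytes.

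Sequences just upstream of the start sites are shown for Emcn, found in all 48 endothelial-like cells of Gel50_CS50, for Kdr, the marker that most members held alone, and for Sele and Selp, neighbouring genes 57586 bases apart that were both higher in Gel50_CS50 below. Each is the 200 bases before the RefSeq start on build GRCm38.p6, 5′ to 3′ on the gene's own strand, at chr3:137340878-137341077 (plus strand), chr5:75978456-75978655 (minus strand), chr1:164048034-164048233 (plus strand) and chr1:164115064-164115263 (plus strand). Capitals mark AGGAAG or its reverse complement CTTCCT, letters that hold the core recognised by ETS factors such as Erg and Fli1.
Emcn: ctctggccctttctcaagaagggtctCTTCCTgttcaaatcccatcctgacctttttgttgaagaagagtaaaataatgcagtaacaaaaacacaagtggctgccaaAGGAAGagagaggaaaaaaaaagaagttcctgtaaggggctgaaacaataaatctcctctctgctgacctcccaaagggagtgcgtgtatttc
Kdr: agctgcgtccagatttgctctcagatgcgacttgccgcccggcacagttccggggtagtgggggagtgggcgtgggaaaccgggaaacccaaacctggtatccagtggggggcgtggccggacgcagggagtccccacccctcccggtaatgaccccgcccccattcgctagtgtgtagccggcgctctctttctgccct
Sele: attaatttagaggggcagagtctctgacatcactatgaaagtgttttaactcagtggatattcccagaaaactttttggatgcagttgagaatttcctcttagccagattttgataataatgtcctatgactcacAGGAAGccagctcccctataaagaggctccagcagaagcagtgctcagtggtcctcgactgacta
Selp: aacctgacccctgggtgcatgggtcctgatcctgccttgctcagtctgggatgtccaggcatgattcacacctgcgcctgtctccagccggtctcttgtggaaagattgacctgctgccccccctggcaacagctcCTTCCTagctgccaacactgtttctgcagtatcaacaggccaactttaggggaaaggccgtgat
Emcn held 2 matches, whose first bases lay 93 bases before the start on the gene's strand and 174 bases before it on the opposite strand. Sele held 1 match at 65 bases on its own strand, Selp held 1 at 64 bases on the opposite strand, and Kdr held none in this window. Among 32851 RefSeq promoter windows of the same length, 24.7% held a match on either strand. A match is a description of letters and no evidence of binding.

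Genes that the rule did not use separated the 2 kinds of member. In the endothelial-like cells, all 36 listed pan-endothelial genes outside the rule had UMIs in both libraries, and together they made up 11624 CPM (a gene's UMIs per 1000000 UMIs summed over the cells) in Gel100 and 14097 CPM in Gel50_CS50. In the Kdr-alone cells the same list summed to 285 and 137 CPM, and 17 and 21 of the 36 genes were at 0. Pecam1, the adhesion molecule CD31, stood at 1086 CPM in Gel100 and 1129 CPM in Gel50_CS50 in endothelial-like cells and at 33.7 and 23.7 CPM in Kdr-alone cells. Flt1, the decoy receptor VEGFR1, stood at 997 CPM in Gel100 and 1608 CPM in Gel50_CS50 and had 58.9 and 14.8 CPM in Kdr-alone cells. The angiopoietin receptor Tek (309 and 409 CPM in endothelial-like cells) and its partner Tie1 (174 and 202 CPM) had no UMI in any of the 180 Kdr-alone cells. Fli1, an ETS factor that many blood cells also express, was the exception, with 136 and 54.3 CPM in Kdr-alone cells beside 736 and 918 CPM in endothelial-like cells. These differences describe sets that the markers chose and carry no test.

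**Figure D2:**
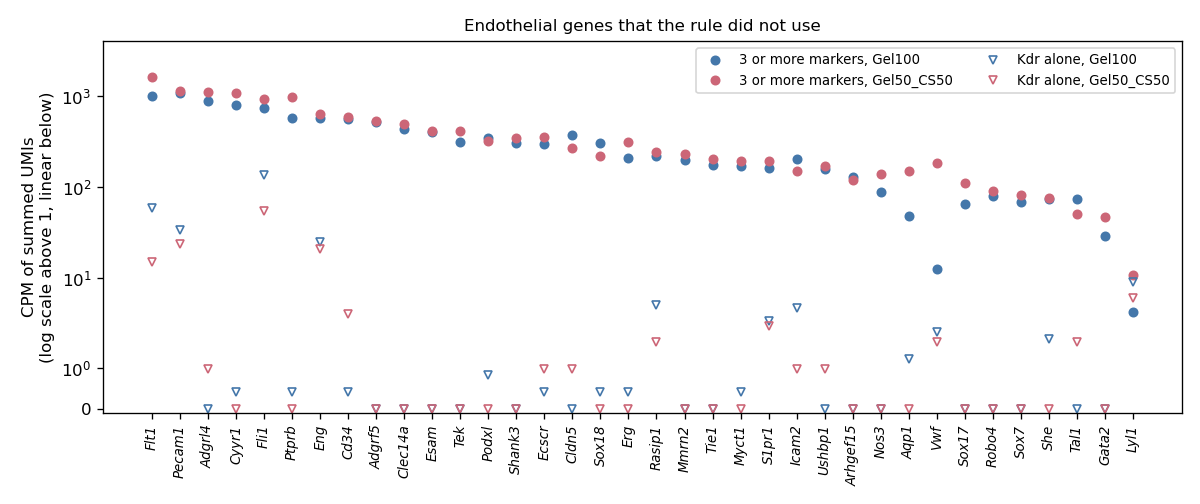
Level (CPM of summed UMIs, y axis, log scale above 1) of the 36 pan-endothelial genes that the rule did not use (x axis), in cells with 3 or more markers (filled circles) and Kdr-alone cells (open triangles) of both libraries. The genes stand far higher in the cells with 3 or more markers, as with Pecam1 at 1086 and 1129 CPM, than in the Kdr-alone cells, where most are at or near 0.

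The Kdr-alone cells carried genes known from leukocytes that present antigen. Ptprc (CD45), carried by nucleated blood cells, had a UMI in 127 of 127 and 53 of 53 of them, and in 8 of 27 and 9 of 48 endothelial-like cells. Its level was 1559 CPM in Gel100 and 1374 CPM in Gel50_CS50 Kdr-alone cells. Relative to all other cells of the libraries, the genes farthest above them in Kdr-alone cells were Il4i1, an amino acid oxidase (235 and 335 CPM), the chemokine Ccl22 (186 and 823 CPM) and Timd4, a receptor for phosphatidylserine (183 and 479 CPM). Ccr7, the receptor that guides dendritic cells to lymph nodes, stood at 399 and 615 CPM. The MHC class II genes H2-Aa (4943 and 6623 CPM) and Cd74 (7206 and 11259 CPM) were abundant, with their regulator Ciita at 229 and 305 CPM. Kdr itself was at 486 and 416 CPM there, against 618 and 660.4 CPM in endothelial-like cells.

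Kdr and Cdh5 UMIs were also found widely outside the members. Of cells with at least 2 Csf1r UMIs, 45.9% in Gel100 and 29.0% in Gel50_CS50 held a Kdr UMI, and 12.2% and 4.74% held at least 4. Egfl7 had a UMI in 0.541% and 1.44% of the same cells, whose median depths were 17642 and 19764 UMIs. Cdh5 had a UMI in 64.4% and 74.4% of cells with at least 3 UMIs of Siglech, a lectin of plasmacytoid dendritic cells, where Egfl7 had one in 0.419% and 1.62%. Among cells with a Cd3e UMI, a T cell gene, Kdr had one in 8.93% and 10.0%, at median depths of 9046 and 15538 UMIs. Cdh5 had a UMI in 3.34% and 3.86% of the Csf1r cells. Plvap, Emcn and Egfl7 stood at 0.549 to 2.70 CPM over the non-members.

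Clustering the members without the 5 markers gave nearly the same division. One cluster of 74 cells, led by Mecom, Selp, Cdh13, Ptprb and Adgrl4, held 72 of the 75 endothelial-like cells and none of the Kdr-alone cells. The Kdr-alone cells fell into 5 clusters, led by Ccl8, C1qa and Trem2, by Ffar2 and Ciita, by Il12b, Ccl22 and Ccr7, by Slpi, and by Xcr1 and Clec9a. A last cluster of 8 cells, led by Rgs5 and Dcn, held 5 of the 17 members with a pair of markers and 1 endothelial-like cell. Of the other pair members, 2 lay in the cluster led by Mecom, 6 in that led by Ccl8 and 2 in that led by Slpi. The clusters led by Ffar2 and by Il12b held 1 each. The Ccl8 cluster also held 2 endothelial-like cells. Settings with at least 2 markers below add the 17 pair members to the endothelial-like cells. How far the added cells set the values was not tested. The clusters describe the cells they were made from and are no test. The endothelial-like cells alone fell into 5 sub-clusters, which stay unnamed and in which the libraries were not spread alike. The sub-cluster led by Selp, Plat and Icam1 held 3 Gel100 and 16 Gel50_CS50 cells, and that led by histone genes, Gzma, Ptprc and Top2a held 11 and 4. Those led by Dkk2, Cd36 and Cxcl12 (4 and 12 cells), by Col3a1 and Apln (6 and 7 cells) and by Fabp5 and Nox4 (3 and 9 cells) made up the rest. The ratios between the scaffolds below are over all sub-clusters together.

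The share of members ran opposite to the share of endothelial-like cells. Members made up 2.16% in Gel100 (1.85 to 2.51) and 1.43% in Gel50_CS50 (1.17 to 1.73), a difference of -0.727 percentage points (-1.15 to -0.305). Endothelial-like cells made up 0.347% in Gel100 (0.229 to 0.504) and 0.648% in Gel50_CS50 (0.479 to 0.859), a difference of 0.302 percentage points (0.0778 to 0.538). Kdr-alone cells made up 1.63% in Gel100 (1.36 to 1.94) and 0.716% in Gel50_CS50 (0.537 to 0.936). Of the members, 16.1% in Gel100 and 45.3% in Gel50_CS50 were endothelial-like. The libraries differed in depth, with 21.8% of Gel100 cells and 4.51% of Gel50_CS50 cells under 3000 UMIs. Among cells with at least 3000 UMIs, endothelial-like cells made up 0.329% in Gel100 (0.201 to 0.507) and 0.651% in Gel50_CS50 (0.477 to 0.867). With the limits on the other cell types lifted and a marker sum of at least 10, they made up 0.270% and 0.716%. These are shares of recovered, viable cells, and the digestion and the sort can set them.

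The median endothelial-like cell had 17395 UMIs in Gel100 and 19376 UMIs in Gel50_CS50, but 7 of 27 and 2 of 48 cells had under 3000 UMIs. They summed to 482445 UMIs in Gel100 and 1037190.0 UMIs in Gel50_CS50. The library medians were 12742 and 16763 UMIs. Their median mitochondrial share was 3.15% and 3.21%, above the 1.01% and 1.75% of Kdr-alone cells. A doublet call fell on 0 and 1 of them, and no member's barcode occurred in both libraries (24 barcodes of the whole libraries did). One cell gave 10.4% of the Gel100 UMIs, so single cells weigh on the Gel100 sums, and the share of a gene's UMIs in its top cell is given where it is large. Fewer cells with a transcript and fewer transcripts per cell both lower a summed level, and detection counts are given beside the sums.

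Between the scaffolds, few genes of the endothelial-like cells differed beyond counting error by more than 1.5-fold. Of 6970 genes whose mean reached 20 CPM, 129 (1.85%) were higher in Gel50_CS50 and 226 (3.24%) were lower, counting a gene where the whole interval of its log2 ratio of Gel50_CS50 over Gel100 lay beyond 1.5-fold. The median log2 ratio over all 6970 genes was -0.05. The shares of 1.85% and 3.24% stand beside each list count of endothelial-like cells below, unless another setting is named. The 5 markers, whose sum chose the cells in both libraries, are given as a description. Cdh5 had 875 and 867 CPM, Egfl7 773 and 770.4 CPM, Kdr 618 and 660.4 CPM, Plvap 877 and 798 CPM and Emcn 858 and 1116 CPM in Gel100 and Gel50_CS50. Their log2 ratios ran from -0.14 for Plvap to 0.38 for Emcn. Of the 35 measured pan-endothelial genes outside the rule, 2 were counted higher (Vwf and Aqp1), none lower, and the median log2 ratio was 0.19. Among those in the middle, Pecam1 had a log2 ratio of 0.06, interval -0.09 to 0.21, and Tek one of 0.40, interval 0.13 to 0.68. Aqp1, a water channel, had 47.7 CPM in Gel100 and 150.4 CPM in Gel50_CS50 (1.66, interval 1.02 to 2.36), and 1.24 without its top cell, which was no longer wholly beyond 1.5-fold.

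**Figure D3:**
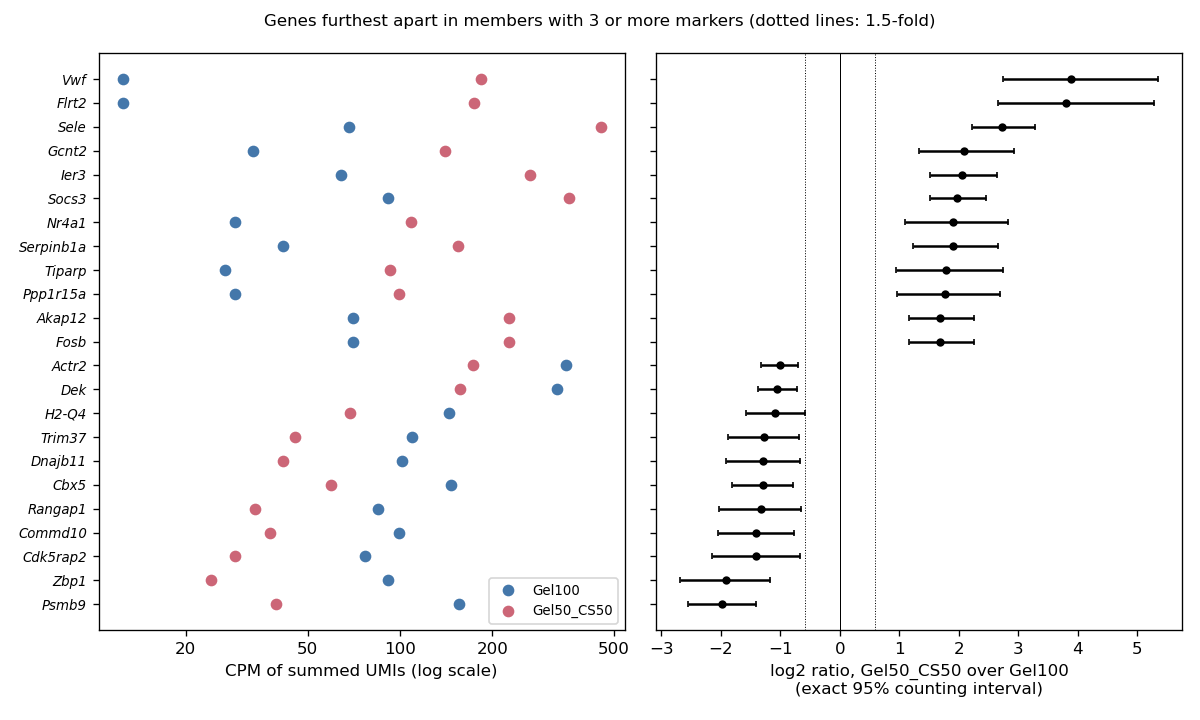
Left, CPM (log scale) in each library and, right, log2 ratio of Gel50_CS50 over Gel100 with its 95% counting interval, for 12 higher and 11 lower named genes (y axis) in endothelial-like cells; dotted lines mark 1.5-fold. Vwf, at 3.89, is the highest ratio of these and Psmb9, at -1.98, the lowest.

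The selectins, Vwf and Icam1, genes of venules and of leukocyte capture, were higher in Gel50_CS50 in the endothelial-like cells, and of these 4 only Vwf was still counted when the rule's limits on other cell types were lifted. Of 15 measured venous and postcapillary genes 5 were counted higher, Selp, Sele, Vwf and Lrg1 among them, and none lower, with a median log2 ratio of 0.43, and of 12 adhesion genes 3 were counted higher (Sele, Selp and Icam1) and none lower. Sele (chr1:164048234-164057677, plus strand, mm10) stood at 68.4 CPM in Gel100 and 452 CPM in Gel50_CS50 (log2 ratio 2.72, interval 2.21 to 3.28) and was found in 7 of 27 cells and 20 of 48. Selp (chr1:164115264-164150026, plus strand, mm10) stood at 201 CPM in Gel100 and 1069 CPM in Gel50_CS50 (log2 ratio 2.41, interval 2.11 to 2.73) and was found in 7 of 27 cells and 23 of 48. Neither selectin was found in more than 23 of the 48 Gel50_CS50 cells, so the sums rest on part of the cells. The largest cell gave 61.9% of the Gel100 and 39.9% of the Gel50_CS50 UMIs of Selp, and the log2 ratio without the Gel50_CS50 cell was 1.75. Vwf, which tethers platelets and is stored with P-selectin in endothelial granules, had 6 UMIs in 3 Gel100 cells and 191 UMIs in 20 Gel50_CS50 cells, or 12.4 and 184 CPM (log2 ratio 3.89, interval 2.74 to 5.35). Icam1, the ligand of leukocyte integrins, stood at 80.8 CPM in Gel100 and 279 CPM in Gel50_CS50 (log2 ratio 1.79, interval 1.30 to 2.31), and at 1.10 (interval 0.60 to 1.64) without its top cell.

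A setting that lifted the limits on Csf1r, Cd3e, Siglech, S100a8 with S100a9, and Col1a2 changed these values. It also required a marker sum of at least 10, leaving 21 Gel100 and 53 Gel50_CS50 cells with at least 3 markers. Of these, 20 and 46 were members, so it added 1 Gel100 cell, held back by the Cd3e limit alone, and 7 Gel50_CS50 cells. How far that 1 Gel100 cell set the values was not tested, here or wherever lifted limits are named. The log2 ratio was then 0.43 for Selp (interval 0.24 to 0.61), 0.83 for Sele (0.52 to 1.15) and 0.84 for Icam1 (0.46 to 1.24), none of them wholly beyond 1.5-fold. None of 12 adhesion genes and 3 of 16 venous genes were then counted higher, beside 2.23% of all genes. Vwf was counted in all 18 alternatives, at 1.58 to 4.26. Selp (0.43 to 2.79) and Sele (0.83 to 3.10) were each counted in 17 of the 18, and Icam1 in 16. Icam1 was at 0.65 over cells with at least 2 markers. The sub-cluster led by Selp and Icam1 took 16 of its 19 cells from Gel50_CS50.

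At equal depth, the selectins and Vwf were again found in a larger share of Gel50_CS50 cells, with intervals that overlapped. After thinning each cell to 3000 UMIs, which leaves out 7 Gel100 and 2 Gel50_CS50 cells, Vwf had a UMI in 0 of 20 cells (exact interval up to 16.8%) and 12 of 46 (exact interval 14.3% to 41.1%). Sele had one in 3 of 20 (exact interval 3.21% to 37.9%) and 16 of 46 (exact interval 21.4% to 50.2%), and Selp in 4 of 20 (exact interval 5.73% to 43.7%) and 15 of 46 (exact interval 19.5% to 48.0%). The unthinned counts were those above. The 3 genes often shared a cell: of 23 Selp cells in Gel50_CS50, 16 held Sele, 12 held Vwf and 22 held Lrg1, while 3 held the arterial gap junction gene Gja4. In Gel100, 4 of 7 Selp cells held Sele and 3 held Vwf. Lrg1, a secreted glycoprotein of inflamed venules, had 344 CPM in Gel100 and 654 CPM in Gel50_CS50 (log2 ratio 0.93, interval 0.68 to 1.18), and 0.64 without its top cell, no longer wholly beyond 1.5-fold. Of the 5 genes counted higher on the list, 3 were still counted when each gene's top cell was left out. Among the other cells of the libraries, Selp had 3.0 and 1.95 CPM and Sele 1.02 and 0.568 CPM.

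Immediate-early genes, the fast transcriptional response to growth factors, cytokines, flow and tissue dissociation, were higher in Gel50_CS50. Of 16 measured genes of that list with heat-shock genes, 10 were counted higher and none lower, beside 1.85% and 3.24% of all genes. The median log2 ratio was 1.17, and 8 of the 10 were still counted without the cell that held most of their UMIs (all but Egr1 and Atf3). Fos stood at 305 CPM in Gel100 and 804 CPM in Gel50_CS50 (log2 ratio 1.40, interval 1.15 to 1.66) in 17 of 27 cells and 37 of 48. Its relative Fosb had 70.5 CPM in Gel100 and 227 CPM in Gel50_CS50 (1.68, interval 1.16 to 2.25), with 58.8% of the Gel100 UMIs in 1 cell. Ier3, a survival gene induced by NF-kB, had 64.3 CPM in Gel100 and 266 CPM in Gel50_CS50 (2.05, interval 1.51 to 2.64) in 9 of 27 cells and 31 of 48, and Nr4a1, an orphan nuclear receptor, 29.0 and 109 CPM (1.91, interval 1.10 to 2.83). Hspa8, the constitutive heat-shock protein, had 1223 and 1159.9 CPM (-0.08, interval -0.22 to 0.07). Across all other cells of the libraries the same genes had a median log2 ratio of 0.03, with Fos at 1187 and 1359.6 CPM and Ier3 at 346 and 418 CPM. Immediate-early genes also respond to enzymatic digestion, whose part in the difference was not tested. Over cells with at least 2 markers (40 and 52 cells, pair members included) 2 of 17 genes were counted higher, beside 2.16% of all genes. The list's median there was 0.40. With the limits on other cell types lifted it was 0.83, with 5 of 16 higher, beside 2.23% of all genes. In cells thinned to 3000 UMIs 2 of 16 were counted higher. Over all genes 45 were then counted higher, against 129 unthinned. Their share of the genes measured is not given, so the list's count cannot be set beside it.

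Per cell, the immediate-early list overlapped between the libraries and reached higher in Gel50_CS50. Summed per 10000 UMIs of a cell, it had a median of 28.0 in Gel100 (lowest 5.83, highest 101) and 35.6 in Gel50_CS50 (lowest 10.7, highest 311). Genes of the response to inflammatory cytokines followed in part. Of 18 NF-kB and cytokine response genes, 2 were counted higher and none lower (all genes: 1.85% and 3.24%), with a median log2 ratio of 0.48. They were Socs3, the feedback inhibitor of cytokine receptors (91.2 CPM in Gel100 and 357 CPM in Gel50_CS50, 1.97, interval 1.51 to 2.45, 13 of 27 cells and 35 of 48), and the interleukin-1 receptor Il1r1 (97.4 CPM in Gel100 and 253 CPM in Gel50_CS50, 1.37, interval 0.92 to 1.85, and 0.90 with those limits lifted). Stat3, which carries the signal that Socs3 limits, had 207 and 364 CPM (0.81, interval 0.49 to 1.15). Both Klf4 (60.1 and 164 CPM, 1.45, interval 0.87 to 2.07) and Ptgs2, the inducible cyclooxygenase (18.7 and 113 CPM, 2.60, interval 1.62 to 3.76), were counted among 11 flow-responsive genes, with Ptgs2 found in 1 of 27 cells and 14 of 48. With the limits lifted the Ptgs2 ratio was -0.51.

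**Figure D4:**
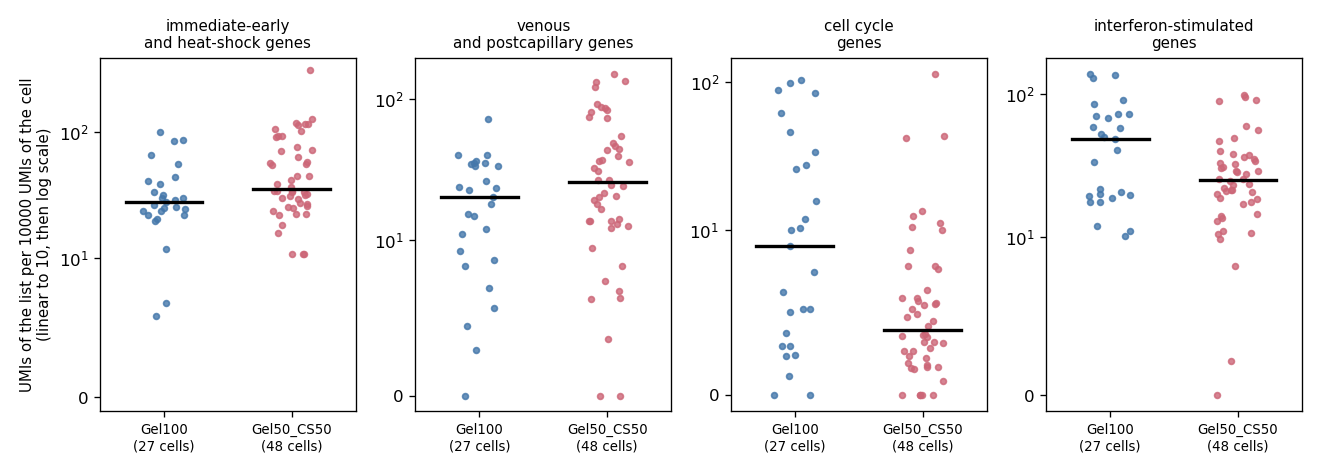
UMIs of 4 gene lists per 10000 UMIs of a cell (y axis, linear to 10 and then log) in each endothelial-like cell (points) of the libraries (x axis), with the median as a bar. The ranges of the libraries overlap in every list, with medians of 48.6 in Gel100 and 25.1 in Gel50_CS50 for interferon-stimulated genes and 28.0 and 35.6 for immediate-early genes.

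Cell cycle genes were lower in Gel50_CS50 among the endothelial-like cells, and a few cells carried most of their transcripts. Of 18 measured genes 13 were counted lower and none higher, beside 3.24% and 1.85% of all genes. The median log2 ratio was -1.48, against 0.23 for the same genes over the other cells of the libraries. Top2a, the topoisomerase of dividing cells, had 394 CPM in Gel100 and 112 CPM in Gel50_CS50 (log2 ratio -1.82, interval -2.16 to -1.48), and Mki67, the proliferation marker Ki-67, 234 and 84.8 CPM (-1.47, interval -1.88 to -1.05). The chromatin protein Hmgb2 had 667 and 239 CPM (-1.48, interval -1.73 to -1.24) and the tubulin regulator Stmn1 213 and 54.0 CPM (-1.98, interval -2.48 to -1.50). The 2 highest cells of each library held 76.9% and 82.8% of the Mki67 and Top2a UMIs. Without the cell that held most of a gene's Gel100 UMIs, 4 of the 13 genes were still counted lower, and Mki67 had -0.59 (interval -1.09 to -0.08). Without the 2 highest Mki67 and Top2a cells of both libraries, the list's median was -1.80 and 11 of 14 measured genes were lower, beside 2.74% of all genes. Over cells with at least 2 markers the median was -0.20 and 2 of 18 genes were lower, beside 6.41% of all genes, with Top2a at -0.45 and Mki67 at -0.40. With the limits on other cell types lifted it was -1.28, with 10 of 19 lower, beside 2.61% of all genes.

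By cell, Mki67 or Top2a had a UMI in 14 of 27 Gel100 cells (51.9%, interval 31.9 to 71.3) and in 13 of 48 Gel50_CS50 cells (27.1%, 15.3 to 41.8). These intervals overlapped. Thinned to 3000 UMIs, Mki67 was found in 4 of 20 and 2 of 46 cells, too few to order. The list's per-cell median was 9.06 UMIs per 10000 in Gel100 (0 to 102) and 3.95 in Gel50_CS50 (0 to 112), and the highest single cell belonged to Gel50_CS50. The sub-cluster led by histone genes and Top2a was also led by Ptprc and Gzma, genes of leukocytes, and took 11 of its 15 cells from Gel100. Among endothelial-like cells with no Ptprc UMI (19 and 39 cells), the median of the cell cycle list was -1.75, with 16 of 20 measured genes lower. In these cells 2.20% of 6875 genes were counted higher and 3.46% lower. Cyclin D1 (Ccnd1), made in the first phase of the cycle, had 184 and 215 CPM (0.22, interval -0.14 to 0.59) and was not counted.

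Interferon-stimulated genes were lower in Gel50_CS50 in part, as they were over the rest of the cells. Of 37 measured genes 9 were counted lower and 1 higher, beside 3.24% and 1.85% of all genes. Their median log2 ratio was -0.54, and over the other cells of the libraries the same 37 genes had a median of -0.94. Psmb9, an immunoproteasome subunit, stood at 155 CPM in Gel100 and 39.5 CPM in Gel50_CS50 (log2 ratio -1.98, interval -2.56 to -1.41) in 14 of 27 cells and 22 of 48, beside 229 and 112 CPM in the other cells. Gbp2, a guanylate-binding protein that acts against intracellular microbes, had 135 and 31.8 CPM (-2.08, interval -2.73 to -1.46), and Zbp1, a sensor of nucleic acids, 91.2 and 24.1 CPM (-1.92, interval -2.69 to -1.18). Cxcl9, a chemokine for T cells, had 39 UMIs in 5 Gel100 cells and 1 UMI in 1 Gel50_CS50 cell. The exception was Irf1, at 106 CPM in Gel100 and 231 CPM in Gel50_CS50 (1.13, interval 0.69 to 1.60), and 0.83 (interval 0.38 to 1.31) without its top cell. Iigp1, an immunity GTPase, was split by single cells, with 634 and 545 CPM (-0.22, interval -0.42 to -0.01) and 0.54 without the Gel100 cell that held 44.4% of its UMIs. Of the 9 lower genes, 4 (Gbp2, Zbp1, Cxcl9 and Psmb9) were still counted without their top cell. Per 10000 UMIs, the list's median over cells was 48.6 in Gel100 and 25.1 in Gel50_CS50, and the ranges of 10.2 to 139 and 0 to 98.7 overlapped. Over cells with at least 2 markers the list's median was -1.31, with 25 of 39 genes lower, beside 6.41% of all genes.

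Part of the antigen presentation genes were lower, and most class II transcripts lay in 1 Gel100 cell. Of 18 measured genes 8 were counted lower and none higher, with a median log2 ratio of -1.09 (-0.77 over the other cells of the libraries). Of the 828 Gel100 UMIs of H2-Aa, H2-Ab1, H2-Eb1 and Cd74, 733 (88.5%) lay in a single cell, and Gel50_CS50 had 55 in 30 cells, at most 4 in any. Without the cell that held most of a gene's UMIs, 5 of the 8 genes (Psmb9, Ciita, Cd74, H2-Ab1 and H2-Eb1) were still counted lower, Cd74 at -1.66 (interval -2.46 to -0.88). The class I genes were found in nearly every cell: B2m, the light chain, had 1582 CPM in Gel100 and 1043 CPM in Gel50_CS50 (-0.60, interval -0.74 to -0.46), and H2-D1 1592 and 1219.6 CPM (-0.38, interval -0.51 to -0.25), and neither was counted. Ptprc had 213 and 97.4 CPM (-1.13, interval -1.54 to -0.72), with 55.3% and 52.5% of its UMIs in 1 cell of each library. Without the cells that held a Ptprc UMI, the list's median was -0.45 and 1 of 13 measured genes was lower, with Cd74 at -0.57, and the interferon list's median was -0.26 with 4 of 33 lower. Over all genes 3.46% were lower in those cells.

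**Figure D5:**
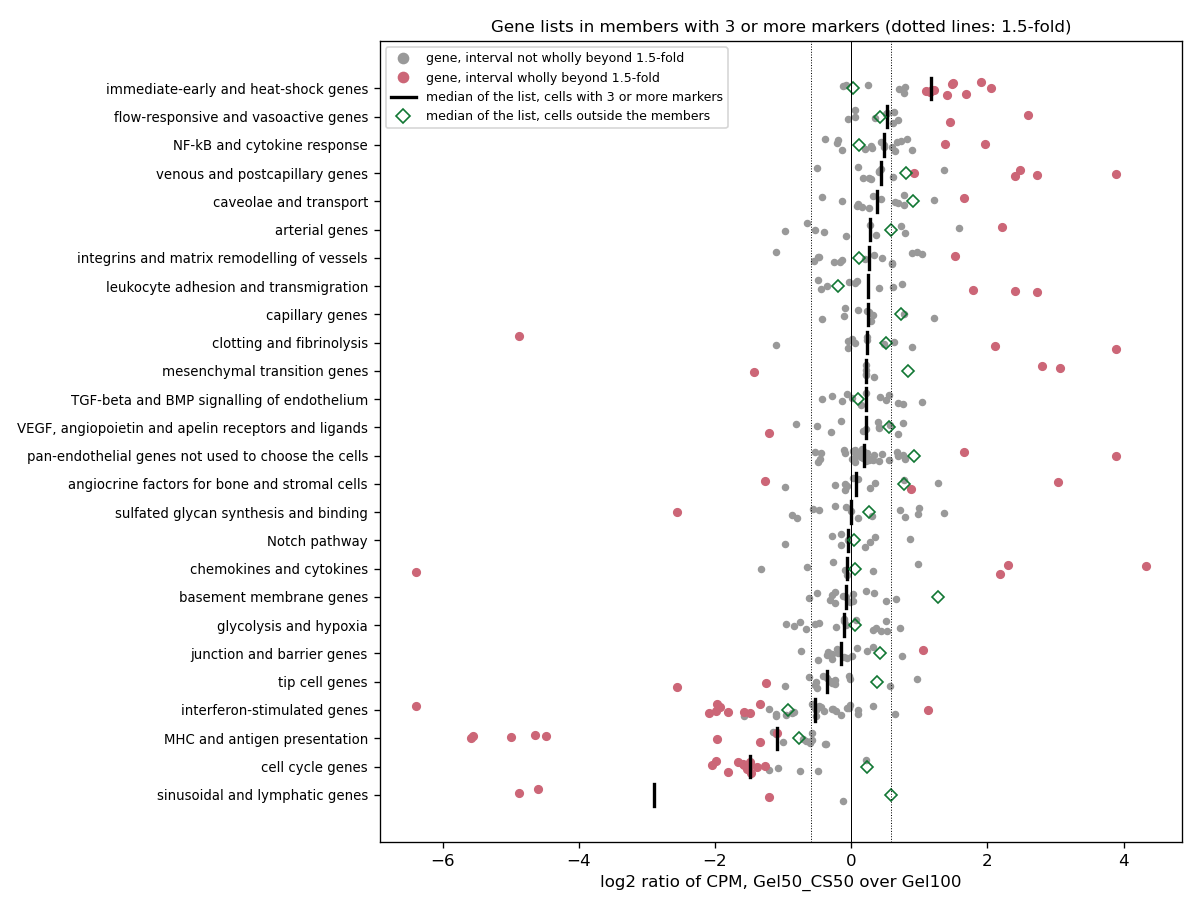
Log2 ratio of Gel50_CS50 over Gel100 (x axis) of every measured gene (points, red where the whole interval lies beyond 1.5-fold) of each list (y axis) in endothelial-like cells, with the list's median (bar) and its median over the other cells of the libraries (green diamond). The cell cycle list has the median -1.48 and the immediate-early list 1.17, and the points of Mmrn1 and Ciita, which had no UMI in Gel50_CS50, are bounds computed with a floor of 3 UMIs.

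Few genes of the angiogenic programme were counted. Of 13 measured genes of the VEGF, angiopoietin and apelin system none was counted higher and 1 lower (Flt4, VEGFR3), with a median log2 ratio of 0.22. Flt1 had 997 CPM in Gel100 and 1608 CPM in Gel50_CS50 (0.69, interval 0.54 to 0.84), not wholly beyond 1.5-fold, and Nrp1, a VEGF co-receptor, 761 and 618 CPM (-0.30, interval -0.49 to -0.11), which turned to 0.12 (interval -0.10 to 0.34) without 1 Gel100 cell. Aplnr, the apelin receptor, had 298 and 395 CPM (0.41, interval 0.13 to 0.69). Of 17 genes of tip cells, which lead a sprout, 2 were counted lower and none higher, with a median of -0.36. Those 2 were Esm1 (108 and 18.3 CPM, -2.56, interval -3.40 to -1.77, 61.5% of the Gel100 UMIs in 1 cell) and Igfbp3 (269 and 114 CPM, -1.24, interval -1.62 to -0.87, 45.4%), and neither was counted without that cell. The Notch ligand Dll4 had 68.4 and 34.7 CPM (-0.98, interval -1.70 to -0.25), with 54.5% of its Gel100 UMIs in 1 cell, and 34.7 CPM in both libraries without that cell. None of 9 Notch pathway genes was counted (median -0.05), with Notch1 at 114 and 131 CPM (0.20, interval -0.26 to 0.68).

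Vessel type genes other than the venous ones gave few counts. Of 11 arterial genes 1 was higher, Mgp, an inhibitor of calcification, at 174 CPM in Gel100 and 809.9 CPM in Gel50_CS50 (2.22, interval 1.89 to 2.56), found in 11 of 27 cells and 23 of 48 with 79.8% of the Gel100 UMIs in 1 cell. Over cells with at least 2 markers the Mgp ratio was -0.26. Over the other cells of the libraries Mgp had 259 and 368 CPM. Efnb2, the arterial ephrin, had 108 and 139 CPM (0.37, interval -0.10 to 0.85) and Sox17 64.3 and 111 CPM (0.79, interval 0.20 to 1.41). None of 10 capillary genes was counted (median 0.24), with the fatty acid carrier Fabp4 at 779 and 969 CPM (0.31, interval 0.14 to 0.49) and caveolin Cav1 at 568 and 679.7 CPM (0.26, interval 0.06 to 0.47). One Gel100 cell held 12 UMIs of Prox1, the lymphatic master regulator, 143 of the chemokine Ccl21a, 41 of Mmrn1, 24 of Flt4 and 16 of Reln. Prox1 also had 3 UMIs in 1 other Gel100 cell and 8 UMIs in 5 Gel50_CS50 cells. Of the 3 sinusoidal and lymphatic genes counted lower among 4 measured, Mmrn1 lay wholly in that cell and Flt4 was no longer counted without it (72.5 and 51.1 CPM, -0.50), while Mrc1 (45 and 4 UMIs) was still counted without its top cell.

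Few matrix and junction genes were counted. None of 15 basement membrane genes was counted, with a median log2 ratio of -0.07, while over the other cells of the libraries the same genes had a median of 1.28. The collagen IV chains Col4a1 (3685 CPM in Gel100 and 3110.3 CPM in Gel50_CS50, -0.24, interval -0.33 to -0.16) and Col4a2 (2038 and 2016 CPM, -0.02, interval -0.13 to 0.10) and the matricellular protein Sparc (2921 and 2974 CPM, 0.03, interval -0.07 to 0.12) were found in nearly every endothelial-like cell. Of 16 junction genes only Pkp4, a plakophilin, was counted higher, at 301 CPM in Gel100 and 622 CPM in Gel50_CS50 (1.05, interval 0.79 to 1.32), while the tight junction genes Cldn5 (371 and 265 CPM, -0.48, interval -0.76 to -0.20, and -0.07 without 1 Gel100 cell) and Tjp1 (415 and 397 CPM, -0.06, interval -0.31 to 0.19) were not. Of 16 integrin and remodelling genes 1 was higher, the protease Adamts1 (133 and 382 CPM, 1.53, interval 1.14 to 1.93). Among 14 angiocrine genes Kitl, the stem cell factor (274 and 503 CPM, 0.88, interval 0.60 to 1.17), and Ccn2 were counted higher and Ccn1 lower (114 and 47.2 CPM, -1.27, interval -1.86 to -0.69), none of them without its top cell. The chemokine Cxcl12, which keeps blood stem cells in the marrow, had 386 and 363 CPM (-0.09, interval -0.34 to 0.18), and 257 and 363 CPM (0.50, interval 0.20 to 0.81) without 1 Gel100 cell. None of 17 glycolysis and hypoxia genes and none of 13 TGF-beta and BMP genes was counted, and of 15 genes of sulfated glycans 1 was lower, Esm1.

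Cytokines were found in few cells. Il6 had 1 UMI in 1 Gel100 cell and 43 UMIs in 8 Gel50_CS50 cells, and a log2 ratio of 0.13 with the limits on other cell types lifted. Il1b and Cxcl2 were higher in the sums of Gel50_CS50 (2.31 and 2.18), but 87.3% and 81.7% of their UMIs lay in 1 cell, and without it the log2 ratios were -0.64 and -0.24. Of the clotting list's 13 genes, Vwf and Plat, the tissue plasminogen activator (33.2 and 143 CPM, 2.11, interval 1.36 to 2.95), were higher and Mmrn1 lower. Plat was at 1.26 without its top cell, no longer wholly beyond 1.5-fold.

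Markers of other cell types also differed in level between the scaffolds in the endothelial-like cells. All 13 macrophage markers had UMIs in both libraries and summed to 947 CPM in Gel100 and 493 CPM in Gel50_CS50, with 0.682 to 130.0 and 0.568 to 38.1 UMIs per 10000 over cells. The 8 haematopoietic markers summed to 757 and 229 CPM (0 to 82.3 and 0 to 29.9 per 10000). The 9 T and NK cell markers summed to 261 and 102 CPM, with Cd3d and Trac at 0 in Gel100. Ncr1 and Gzma were counted lower, neither of them without its top cell. In the opposite direction, the 10 fibroblast markers summed to 106 and 371 CPM, with Lum and Postn at 0 in Gel100, and the 10 pericyte and smooth muscle markers to 70.5 and 322 CPM, with Pdgfrb at 0 in Gel100 and Myh11 at 0 in both. All 185 Rgs5 UMIs lay in 1 Gel50_CS50 cell. The 9 neutrophil markers summed to 97.4 and 264 CPM, with Retnlg at 0 in both, and the erythroid markers to 2.07 and 0 CPM. S100a9 and Lcn2 were counted higher, neither of them without its top cell. Per 10000 UMIs, the neutrophil markers had medians over cells of 0.227 and 0.452, and highest cells of 20.1 and 120. In Kdr-alone cells the macrophage markers summed to 10378 and 6483 CPM. The part of such transcripts in the immune gene differences was not tested beyond the values without Ptprc cells. The immediate-early list had a median of 1.71 in the cells without Ptprc, with 11 of 16 genes higher, and the venous list 0.28, with 5 of 15 higher, beside 2.20% of all genes.

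Over all 274 members, pan-endothelial genes were higher and macrophage markers lower in Gel50_CS50, whose members held more endothelial-like and fewer Kdr-alone cells. Of 6821 measured genes 688 (10.1%) were higher in Gel50_CS50 and 537 (7.87%) lower, and all 33 measured pan-endothelial genes were among the higher, with a median log2 ratio of 1.76 beside 0.19 in the endothelial-like cells. Of 13 macrophage markers 12 were counted lower and none higher (median -1.66), while of 4 measured neutrophil markers 2 were higher and 1 lower. The highest ratios by the rule for named genes were those of Sele (10.5 and 209 CPM, log2 ratio 4.31, interval 3.80 to 4.87), Tmem252, Adamts9, Apold1, Tacr1, Ccdc85a, Lrg1, Fam171a1, Slco2a1, Tspan7, Il1r1 and Ptprb, the VE-cadherin phosphatase (89.0 and 445 CPM, 2.32, interval 2.13 to 2.52). In endothelial-like cells Ptprb had 574 CPM in Gel100 and 969.9 CPM in Gel50_CS50 (0.76, interval 0.56 to 0.95). The lowest were Clec12a, a myeloid lectin (183 and 25.6 CPM, -2.84, interval -3.25 to -2.45), Lipg, C1qa, a chain of complement C1q (227 and 36.7 CPM, -2.63, interval -2.98 to -2.30), C1qc, Gstt1, Adgre1, Slc11a1, Ms4a7, AW112010, Cadm1, Slc16a10 and Ly6c2. Ly6c2 shares sequence with Ly6c1, so its count is uncertain. In Kdr-alone cells Clec12a had 223 and 46.4 CPM and C1qa 288 and 71.1 CPM, and in endothelial-like cells they had 6.22 and 0.964 and 22.8 and 8.68 CPM.

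The named genes farthest from 0 in endothelial-like cells, with no cell holding over 25% of their UMIs where they were higher, were Vwf, Flrt2, Sele, Gcnt2, Ier3, Socs3, Nr4a1, Serpinb1a, Tiparp, Ppp1r15a, Akap12 and Fosb on the higher side. Flrt2, a guidance and adhesion protein, had 12.4 CPM in Gel100 and 175 CPM in Gel50_CS50 (3.81, interval 2.66 to 5.28) in 4 of 27 cells and 23 of 48. Gcnt2, a glycosyltransferase, had 33.2 and 141 CPM (2.09, interval 1.34 to 2.93) in 8 of 27 cells and 32 of 48, and Serpinb1a, an inhibitor of neutrophil proteases, 41.5 and 155 CPM (1.90, interval 1.23 to 2.65). Ppp1r15a, which ends the integrated stress response, had 29.0 and 99.3 CPM (1.77, interval 0.96 to 2.70). Of the 23 genes plotted, 10 were no longer counted over cells with at least 2 markers, among them Flrt2 at 0.83 and Ppp1r15a at 0.18. With the limits on other cell types lifted 9 were not, among them Serpinb1a at 0.40, and in thinned cells 16 were not, with Serpinb1a at 0.02 (interval -1.17 to 1.33). On the lower side stood, among others, Psmb9, Zbp1, Cdk5rap2, Commd10, Rangap1, Cbx5, Dnajb11, Trim37, H2-Q4, Dek and Actr2. Relative to the other cells of the libraries, the genes farthest above them in endothelial-like cells, leaving aside Emcn, Plvap and Egfl7, by which the cells were chosen, were Tacr1, Sox18, Aplnr, Podxl, Prex2, Cldn5, Ptprb, Shank3 and Sele. Tacr1, the substance P receptor, had 155 CPM in Gel100 and 307 CPM in Gel50_CS50 in endothelial-like cells and 0.0474 and 0.189 CPM in the others, and was found in 8 of 27 cells and 16 of 48. Prex2, a Rac exchange factor, had 696 and 1123 CPM (0.69, interval 0.51 to 0.87) in 19 of 27 cells and 45 of 48. H2-Q4 belongs to a family of near-identical class I genes, and its count is uncertain.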

How the data were processed

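Single-cell RNA was counted in 1 library of 5 pooled mice per scaffold. Per the file headers, Cell Ranger 6.0.2 made the deposited files, which give raw UMI counts for every gene and barcode, not normalized. The submitters' processing notes name the build mm10, and the annotation release is not stated there. Of the 32285 gene identifiers, 99.8% were found in GENCODE vM21, which gave gene coordinates. Cells within the limits summed to 108741627 UMIs in Gel100 and 150101538 UMIs in Gel50_CS50.

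UMIs were summed over the cells of a set and scaled to CPM, with scipy 1.17.1 for the exact conditional binomial interval of a ratio and the Clopper-Pearson interval of a share, and Newcombe's interval for a difference of shares. A count of 0 was set to a floor of 3 UMIs over the set to bound a ratio. Clusters came from scanpy 1.11.5 and leidenalg 0.10.2 (1000 variable genes, 10 principal components, 10 neighbours, resolution 0.6). Scrublet (expected rate 0.06) marked doublets, which were kept. The calls were checked on counts simulated for each library's sum with counting error alone. The simulated counts held no spread between cells, so the check cannot show how the calls fare with it. Scaling by TMM factors (edgeR 4.0.16) was an alternative, as were other limits on markers, depth, Ptprc, doublets and expression, cells thinned or weighted equally, and single cells left out.

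Named genes were members of the lists with at least 20 CPM on average, the 12 highest and 12 lowest ratios with a mean of at least 50 CPM, an interval wholly beyond 1.5-fold and no cell holding over 25% of the gene's UMIs in the library where it was higher, and the 12 genes farthest above the other cells. The members, the gene lists and the tests were chosen with earlier results of these data known, and the set with at least 3 markers was chosen after its values were seen. Lists share genes (Sele and Selp stand on 2 lists). A few genes that the rule named are not reported here.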

Additional observations from a re-analysis of the deposited data

How the results depend on the processing

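The difference in the share of members, -0.727 percentage points, depended on which markers were required. It was -0.0431 at a marker sum of at least 8, and positive with at least 2 markers (0.189), with at least 3 markers (0.302) and with no Ptprc UMI (0.258). Over all members, the number of genes counted higher was 158 with at least 2 markers, 129 with at least 3, 169 with no Ptprc UMI, 433 in thinned cells, 1171 with no limit on mean CPM and 240.0 at 100 CPM or more, against 688. The number counted lower was 226 with at least 3 markers, 226 in thinned cells and 283 at 100 CPM or more, against 537. In endothelial-like cells the counts of 129 higher and 226 lower genes were 45 and 69 in thinned cells, 204 and 385 with no limit on mean CPM, 57 and 44 at 100 CPM or more, and 409 and 524 with each cell weighted equally, and 469 were lower with at least 2 markers. With equal weights the interval was that of the summed counts moved to the new ratio, so its width does not belong to the weighted mean.

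List medians over all members that were at least 1.5-fold changed sign for arterial genes with at least 2 markers (-0.0181). With at least 3 markers they did so for tip cell (-0.36), Notch (-0.0498), junction (-0.15) and basement membrane genes (-0.0707). With no Ptprc UMI they did so for tip cell (-0.16), basement membrane (-0.0339) and mesenchymal genes (-1.21). In endothelial-like cells, single genes that the text names and that were counted changed sign with at least 2 markers (Mgp -0.26, Il1b -0.39, Cxcl2 -0.0059, Rgs5 -0.78), with the limits on other cell types lifted (Ptgs2 -0.51), without called doublets and without the top cell (Il1b -0.64, Cxcl2 -0.24, the same cell), with equal weights (Igfbp3 0.46) and in thinned cells (Flt4 0.38, Il6 -0.46). The Il6 value is a lower bound against the floor of 3 UMIs, since no Gel100 UMI of it was left, and shows no change of direction. These are 12 of the 1251 values of 70 counted genes under an alternative. Of 1008 values of 56 named genes that were not counted, 94 changed sign, 16 of them without the gene's top cell. Of the counted genes, 41 were no longer counted in thinned cells, 28 without their top cell, 26 with at least 2 markers, 25 with the limits on other cell types lifted, 17 with equal weights and 15 with no Ptprc UMI. Of the list medians, 751 moved by less than 1.5-fold and 66 by more, beside the 8 named above that changed sign. Changes of sign in medians under 1.5-fold stand among the 751 and 66. In endothelial-like cells, the tip cell median of -0.36 was 0.28 with equal weights and 0.024 with at least 2 markers. With at least 2 markers the arterial median of 0.28 was also -0.0181 and the junction median of -0.15 was 0.14. The causes of these changes were not tested. With at least 2 markers, the cell cycle median was -0.20 and the immediate-early median 0.40. With 48 and 27 cells, differences in genes found in few cells rest on those cells. No paired analysis was possible because each group is 1 library. The settings with at least 4 markers or with the limits on other cell types lifted, and those that left out the top cell of a gene or the highest Mki67 and Top2a cells, were chosen after seeing the data.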
